A study of Mus musculus with 18 samples.

Results

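The 41 genes described here encode the machinery of DNA replication and S phase, and they were taken by name from a list of replication genes among the 18659 genes of the expression table. The list held the helicase subunits *Mcm2*, *Mcm3*, *Mcm4*, *Mcm5*, *Mcm6* and *Mcm7*, their partners *Cdc45*, *Gins1*, *Gins2*, *Gins3*, *Gins4* and *Mcm10*, and the licensing genes *Orc1*, *Orc6*, *Cdc6* and *Cdt1*. It also held the sliding clamp *Pcna* with its loader genes *Rfc1* to *Rfc5*, the polymerase and primase genes *Pola1*, *Pola2*, *Prim1*, *Prim2*, *Pold1*, *Pold3*, *Pole* and *Pole2*, and *Fen1*, *Lig1*, *Rpa1* and *Rpa2*. The nucleotide supply genes *Rrm1*, *Rrm2* and *Tyms*, the cyclin E genes *Ccne1* and *Ccne2*, and the chromatin assembly genes *Chaf1a* and *Chaf1b* completed it. All 41 were found in the table and all 41 passed the filter on low values in every comparison.

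RNA-seq was done on male E14 mouse embryonic stem cells (mESCs) grown in serum with LIF on gelatin. Every siRNA acted for 24 h, and total RNA was depleted of rRNA before sequencing. Set 1 held 1 library of scrambled control siRNA (scr) and 3 libraries of SP, a commercial pool of siRNAs to *Stag1* (1a, 1b and 1c). Sets 2 and 3 each held 1 library of scr, of SP, of 3p (a mix of commercial siRNAs toward the 3′ end of *Stag1*), of 5p (a single custom duplex toward its 5′ end) and of SATS (an enzymatically made mixture against the 5′ UTR of an upstream *Stag1* start). By the catalogue numbers in the methods, the 3p siRNAs are also in the SP list, so SP and 3p are not separate reagents. There were 2 further controls, untreated cells in set 2 and luciferase siRNA (Luc) in set 3. Libraries are named by condition and set, such as SATS_3. The labels do not say whether sets were separate cultures, so p-values measure the spread between these libraries, which may be technical.

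Before S phase, ORC, CDC6 and CDT1 load the ring of MCM proteins onto DNA, which licenses each origin. Cyclin E with its kinase, CDC45 and GINS then turn the ring into an active helicase, and polymerases held on DNA by PCNA copy both strands. Many of these genes are transcribed by E2F factors. mESCs spend much of their cycle in S phase and are known for high cyclin E. Cohesin, of which STAG1 is a subunit, is loaded in the same cycle and holds the sister chromatids together from S phase on.

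*Stag1*, the target of the siRNAs, had 1876 and 2113 normalized reads in scr_2 and scr_3, and 365 to 441 in the 6 libraries of SP, 3p and 5p of sets 2 and 3. Its change from scr was −2.36 under SP, −2.39 under 3p and −2.24 under 5p on the log2 scale (limma, adjusted p = 0.00116, 0.00103 and 0.0017). SATS libraries held 947 and 1051 (limma, adjusted p = 0.633, and 0.0013 with the replicate block introduced below). The untreated library held 1619 and the Luc library 2199.8. In set 1 the values were 2016 in scr and 512 to 660.4 in the SP libraries. Depth, in reads assigned to genes, was 9023224 to 14040830 in set 1 (4 libraries, 69.2% to 79.1% of it the ribosomal precursor *Rn45s*) and 32137666 to 45660840 in the other 12 libraries (14.7% to 23.9%). The replication genes together took 0.509% to 0.741% of the other reads. The lowest of them, *Gins3*, had 17 to 78 reads in set 1 and 322 to 547 in sets 2 and 3, so counting error was larger in set 1. All 12 markers of embryonic stem cells on a fixed list were present, with summed values of 48832 to 84391 per library, against 116 to 5839 for 9 fibroblast markers, 177 to 550.3 for 11 markers of endoderm and trophoblast and 804 to 4346 for 9 of neural and mesodermal cells. No marker of these lists was at 0 in all libraries. With the replicate block, limma called the stem cell markers *Lin28a* lower under 5p (−0.68, adjusted p = 0.00113) and *Fgf4* lower under 3p (−0.88, adjusted p = 0.00937), and under 5p *Col1a1* (−0.75, adjusted p = 0.0255) and *Nes* (−0.54, adjusted p = 0.0330) lower and *Neurod1* higher (0.85, adjusted p = 0.0113). The part of other cells in the results was not tested.

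Levels per length ranged widely within most roles. Under scr in sets 2 and 3, *Pcna*, the clamp that holds polymerases on DNA, had the highest level with 2566 ± 217 normalized reads per kb of exon (SD, n = 2), and the lowest was *Gins3*, a GINS subunit, with 63.1 ± 0.255. This was a range of 40.6-fold over genes. The helicase subunits lay close together, from 2140.0 per kb for *Mcm7* to 1060.3 for *Mcm6*. Their partners (*Cdc45*, the GINS genes and *Mcm10*) spanned 9.07-fold, from *Gins4* (573) to *Gins3*. Among licensing genes *Cdt1* was highest (1193) and *Cdc6* lowest (239). Of the clamp loader subunits and the clamp, *Rfc2* was lowest (197). Levels per kb depend on the annotated exon length. *Rfc2* has 4995 exon bases with a 3′ UTR of up to 3846, and *Gins2* has 3900 with up to 3053. In scr_2 and scr_3 *Rfc2* had more normalized reads (1007 and 958) than *Rfc3* (528 and 590). Use of these long 3′ UTRs was not tested. The polymerase genes ran from *Pold1* (607) to *Pole2* (205), and the genes for Okazaki fragments and single strands from *Lig1* (945) to *Rpa1* (595). *Rrm2*, the regulated subunit of ribonucleotide reductase, had 1605 per kb and *Tyms*, thymidylate synthase, 359. The cyclin E genes differed by 13.1-fold, with 1475 per kb for *Ccne1* and 113 for *Ccne2*, whereas the chromatin assembly genes *Chaf1b* (463) and *Chaf1a* (387) differed by 1.20-fold. In the order of all 41 genes, the ranges from scr_2 to scr_3 did not overlap for 16 of the 40 pairs of neighbours, and the other 24 overlapped. Of the 10 highest genes, *Mcm7*, *Mcm2*, *Mcm3* and *Mcm5* overlapped with their neighbours in this sense, and *Pcna* stood above them. The order of these helicase genes was nevertheless the same in scr_2 and in scr_3.

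**Figure D1:**
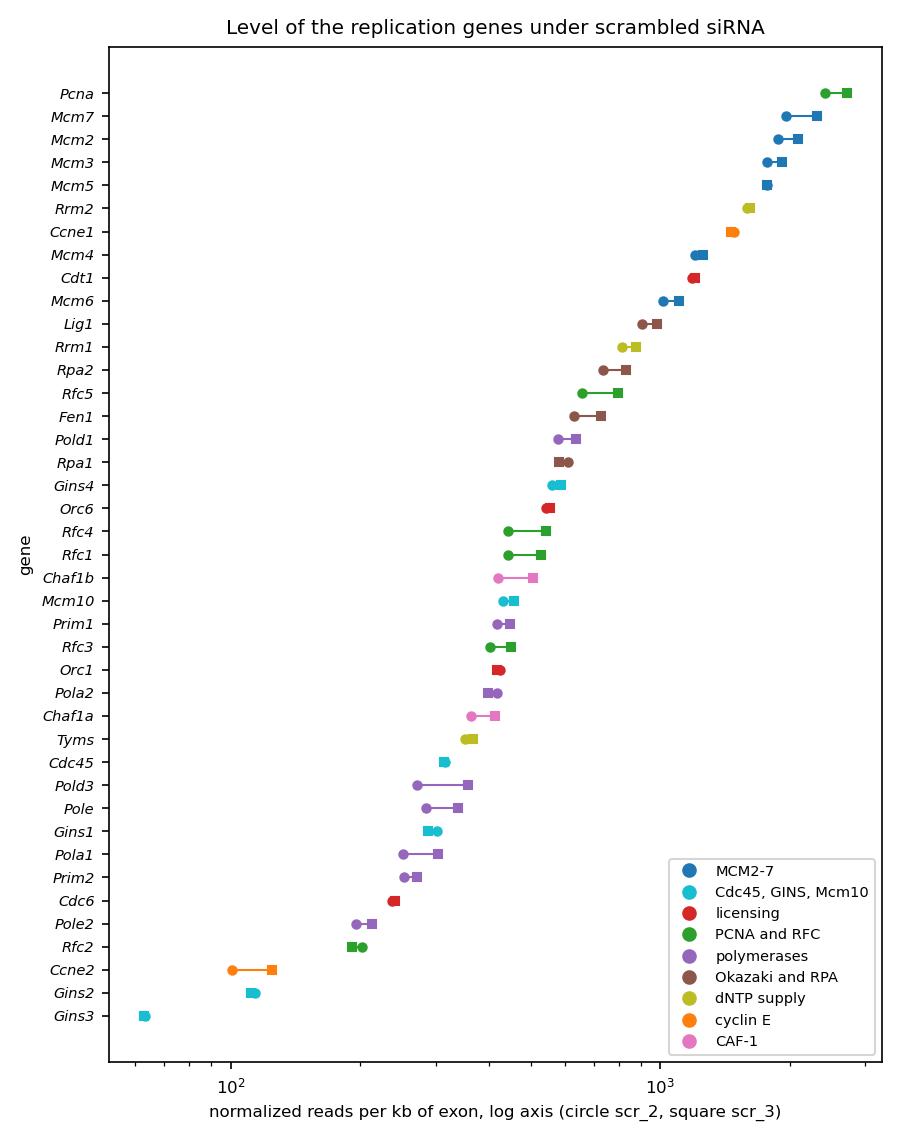
Level of each replication gene under scrambled siRNA, in normalized reads per kb of exon on a log axis. The circle is scr_2 and the square scr_3, joined by a line, and colours give the role. *Pcna* (2566 per kb) and 4 helicase genes stand at the top, and *Ccne2*, *Gins2* and *Gins3* (63.1 per kb) at the bottom.

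Promoters of these genes often held E2F-type words. The promoter window (250 bases before to 50 after the start in RefSeq, GRCm38.p6) was found for 33 of the 41 genes, and the words TTTCCCGC, TTTCGCGC, TTTGCCGC and TTTGGCGC were searched on both strands. At least 1 stood in a window of 14 of the 33 genes, or 37.8% of their 37 promoters, against 2.26% of all 32851 promoters and 4.14% of the 10876 promoters of genes whose mean over libraries was 50 or more. The 14 were *Mcm3*, *Mcm5*, *Mcm6*, *Mcm7*, *Gins3*, *Orc1*, *Cdc6*, *Cdt1*, *Rfc3*, *Pola1*, *Pold1*, *Pold3*, *Pole2* and *Lig1*. The words of 6 of the 14 that are named in the comparisons are shown here, so that the matched letters can be seen. Windows run in the direction of the gene, with 1 word in capitals. The *Rfc3* window also holds TTTCCCGC on the opposite strand (read as GCGGGAAA), left in small letters. Letters that match are a description and no evidence of binding.
*Cdt1* (chr8:122568035-122568064, plus strand): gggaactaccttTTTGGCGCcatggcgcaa
*Cdc6* (chr11:98908002-98908031, plus strand): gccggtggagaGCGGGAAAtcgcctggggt
*Orc1* (chr4:108579416-108579445, plus strand): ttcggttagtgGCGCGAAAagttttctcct
*Rfc3* (chr5:151651200-151651229, minus strand): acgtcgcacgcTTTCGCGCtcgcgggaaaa
*Pola1* (chrX:93632275-93632304, minus strand): gtcatcacaggGCGCCAAAtgcactcccgc
*Pold3* (chr7:100121467-100121496, minus strand): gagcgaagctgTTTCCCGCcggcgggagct

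The question of each comparison was which of these transcripts changed when *Stag1* was lowered. In limma fits on log2(value + 1) with Benjamini-Hochberg adjustment over all genes, 0 of the 41 genes passed an adjusted p under 0.05 in any of 6 comparisons. The background in these fits was as low: 0.00606% of the 16490 genes tested were called under SP, 0.00606% under 3p, 0.0121% under 5p, 0.0% under SATS, 0.0% between 5p and 3p, and 0.0% of 15970 genes for SP over 3 sets. At an unadjusted p under 0.05 stood 2 replication genes under SP (2.49% of all genes), 3 under 3p (1.73%), 3 under 5p (3.63%), 5 under SATS (3.94%), 2 between 5p and 3p (4.09%), and 0 for SP over 3 sets (0.526%). edgeR and DESeq2 on the recovered reads, without the block, also called 0 in each. In that edgeR fit *Stag1* itself was not called under SATS (adjusted p = 0.603) or for SP over 3 sets (adjusted p = 0.258). The share of all genes called by DESeq2 is not given here. Deviations from the group means were shared within a set, so the fit with the set as a replicate block is given beside it. With the block, limma called 0 genes under SP (background 0.746% of all genes), 0 under 3p (0.285%), 3 under 5p (2.37%), 1 under SATS (2.64%), 1 between 5p and 3p (3.26%) and 0 for SP over 3 sets (0.0%).

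Under SP the replication genes lay slightly below scr, without a call. In sets 2 and 3 the fitted change was negative for 38 of 41, with a median of −0.079 on the log2 scale against 8.53e-06 for all genes tested. In bulk RNA, fewer cells in S phase and less of these transcripts per cell cannot be told apart. The authors report that siRNA knockdown of *Stag1* left the cell cycle unaffected, which was not tested here. Per set, 24 genes were lower than scr in both sets, 0 were higher in both and 17 went opposite ways. Of all genes, 29.01% were lower in both and 28.5% higher in both. The non-targeted libraries also lay on this side of scr: against scr of their set, 30 of 41 genes were lower in the untreated library (median −0.043) and 26 of 41 in the Luc library (median −0.041). Beside these, the medians were −0.051 in SP_2 and −0.090 in SP_3. Against all 4 control libraries of sets 2 and 3 (scr, untreated and Luc), both SP libraries lay below for 6 genes (*Mcm6*, *Mcm10*, *Orc1*, *Cdt1*, *Pola2* and *Prim2*), where the background is 6.62% of all genes, and above for 0, where it is 6.11%. The most negative fitted changes were −0.28 for *Cdt1* (SE 0.11 without and 0.088 with the block, adjusted p = 0.181 with the block), −0.27 for *Mcm10* (adjusted p = 0.118) and −0.20 for *Rfc5* (adjusted p = 0.280), none past the threshold in limma.

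Over all 3 sets, with SP_1a, SP_1b and SP_1c averaged, the SP change was negative for 33 of 41 genes with a median of −0.067 (all genes 0.014). The 3 libraries of set 1 differed among themselves, with member medians of −0.038 in SP_1a, 0.0016 in SP_1b and −0.20 in SP_1c against the single scr library. Among the genes that were lower in all 3 sets, *Mcm10* (−0.24, SE 0.16), *Cdt1* (−0.24, SE 0.11) and *Orc1* (−0.18, SE 0.14) had the lowest fitted changes, and with the block limma gave each an adjusted p of 0.759. *Mcm3* (−0.20, SE 0.19) was lower in sets 1 and 3 and higher in set 2, at 5330.5 normalized reads in scr_1 and 3164, 4322 and 3366 in the SP libraries, with 5696 in SP_2 against 5374 in scr_2 and 5362 in SP_3 against 5817 in scr_3. The difference in set 1 rests on 1 control library, so it has no replicate check.

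**Figure D2:**
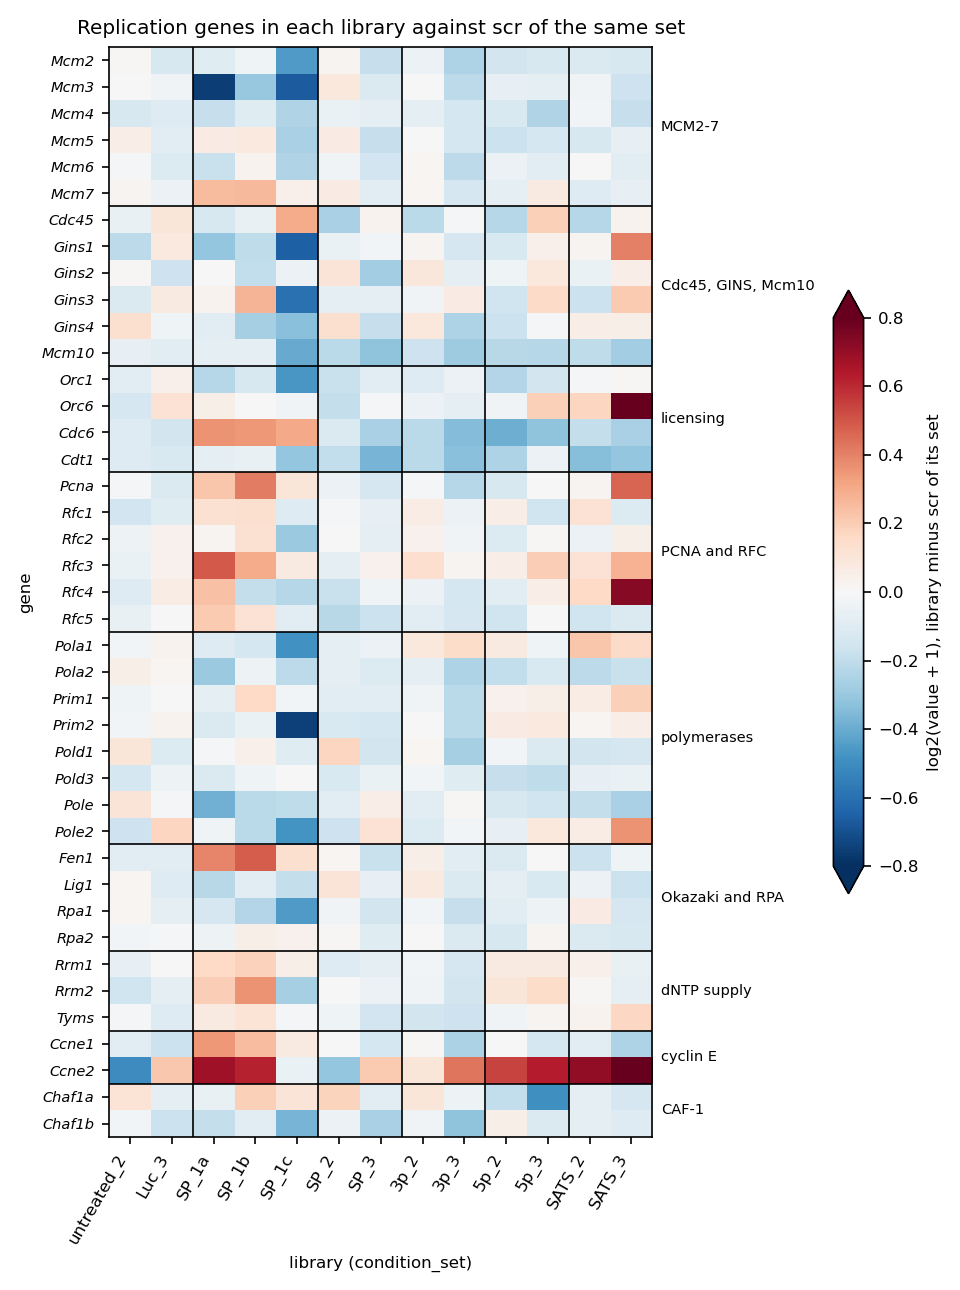
Change of each of the 41 genes in each library against the scr library of its set, in log2(value + 1), with blue below and red above scr and colours ending at 0.8 on either side. Columns are libraries named by condition and set, and lines separate roles and conditions. *Ccne2* is red in 5p and SATS of both sets and blue in the untreated library, and SATS_3 has red cells at *Orc6*, *Rfc4* and *Pcna*.

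3p, which lowered *Stag1* as far as SP, gave a median change of −0.084 over the replication genes, negative for 33 of 41 (all genes −0.0041). The sets differed: the median was −0.021 in 3p_2 and −0.14 in 3p_3, where 36 of 41 genes lay below scr_3. In both sets 23 genes were lower and 3 were higher, against 29.7% and 25.9% of all genes. Both 3p libraries lay below all 4 controls for 9 genes (*Mcm2*, *Mcm3*, *Mcm10*, *Cdc6*, *Cdt1*, *Pcna*, *Pola2*, *Tyms* and *Chaf1b*, with a background of 5.84%) and above for 0 (4.72%). The most negative changes were in the licensing genes *Cdc6* (−0.28, SE 0.080 with the block, adjusted p = 0.183) and *Cdt1* (−0.27, adjusted p = 0.261), followed by *Mcm10* (−0.22, adjusted p = 0.257). The most positive changes of the same sign in both sets were those of *Ccne2* (0.26, adjusted p = 0.550), *Pola1* (0.11, adjusted p = 0.634) and *Rfc3* (0.080, adjusted p = 0.812). None of the 6 passed in limma with the block.

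Under 5p, with the block, *Cdc6* and *Chaf1a* fell and *Ccne2* rose (limma, adjusted p = 0.0332, 0.0476 and 0.0485), whereas the median over all 41 genes was −0.062 (31 negative, all genes 0.012). The genes were lower in both sets for 19, higher in both for 6 and opposite for 16, with 30.1% and 32.7% of all genes lower and higher in both. The median was −0.084 in 5p_2 and −0.016 in 5p_3. Below all 4 controls lay 6 genes (*Mcm5*, *Mcm10*, *Orc1*, *Cdc6*, *Pola2* and *Chaf1a*, background 8.07%), and above them *Rrm2* and *Ccne2* (background 8.39%). Outside the called genes, *Mcm10* changed by −0.23 (SE 0.071 with the block, adjusted p = 0.128), *Rfc3* by 0.12 (adjusted p = 0.539) and *Rrm2* by 0.12 (adjusted p = 0.456).

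SATS, the siRNA that left the most *Stag1*, had the widest range of fitted changes over the replication genes, from −0.33 to 1.08. *Ccne2* rose (1.08, SE 0.14 with the block, limma adjusted p = 0.00795), while the median over the 41 genes was −0.044 (25 negative, all genes −0.0038). By role, 5 of the 6 genes of the clamp and its loader had a fitted change above 0, with a median of 0.10. Below 0 were 6 of 6 helicase genes and 4 of 4 genes for Okazaki fragments and single strands (medians −0.097 and −0.11). All 6 helicase genes were also below 0 under SP, 3p and 5p, and in Luc_3 they lay at −0.13 to −0.026 from scr_3. The 4 Okazaki and single-strand genes were also below 0 under 3p and 5p, and 3 of 4 under SP. Of the clamp and loader genes, *Rfc1* (0.12 in SATS_2, −0.11 in SATS_3) and *Rfc2* (−0.044 and 0.050) changed sign between sets. *Pcna* was at 0.020 and 0.46, and *Rfc3* and *Rfc4* were above scr in both sets. In both sets 19 genes were lower and 12 higher, against 33.8% and 32.4% of all genes. Below all 4 controls lay 8 genes (*Mcm3*, *Mcm10*, *Cdc6*, *Cdt1*, *Pola2*, *Pold1*, *Pole* and *Lig1*, background 9.64%), and above them *Gins1*, *Orc6* and *Ccne2* (background 9.04%). Next to *Ccne2*, the highest fitted changes were *Orc6* (0.49, adjusted p = 0.0545 with the block) and *Rfc4* (0.44, adjusted p = 0.0721), and the lowest *Cdt1* (−0.33, adjusted p = 0.0656), *Mcm10* (−0.24, adjusted p = 0.0866) and *Cdc6* (−0.23, adjusted p = 0.141).

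**Figure D3:**
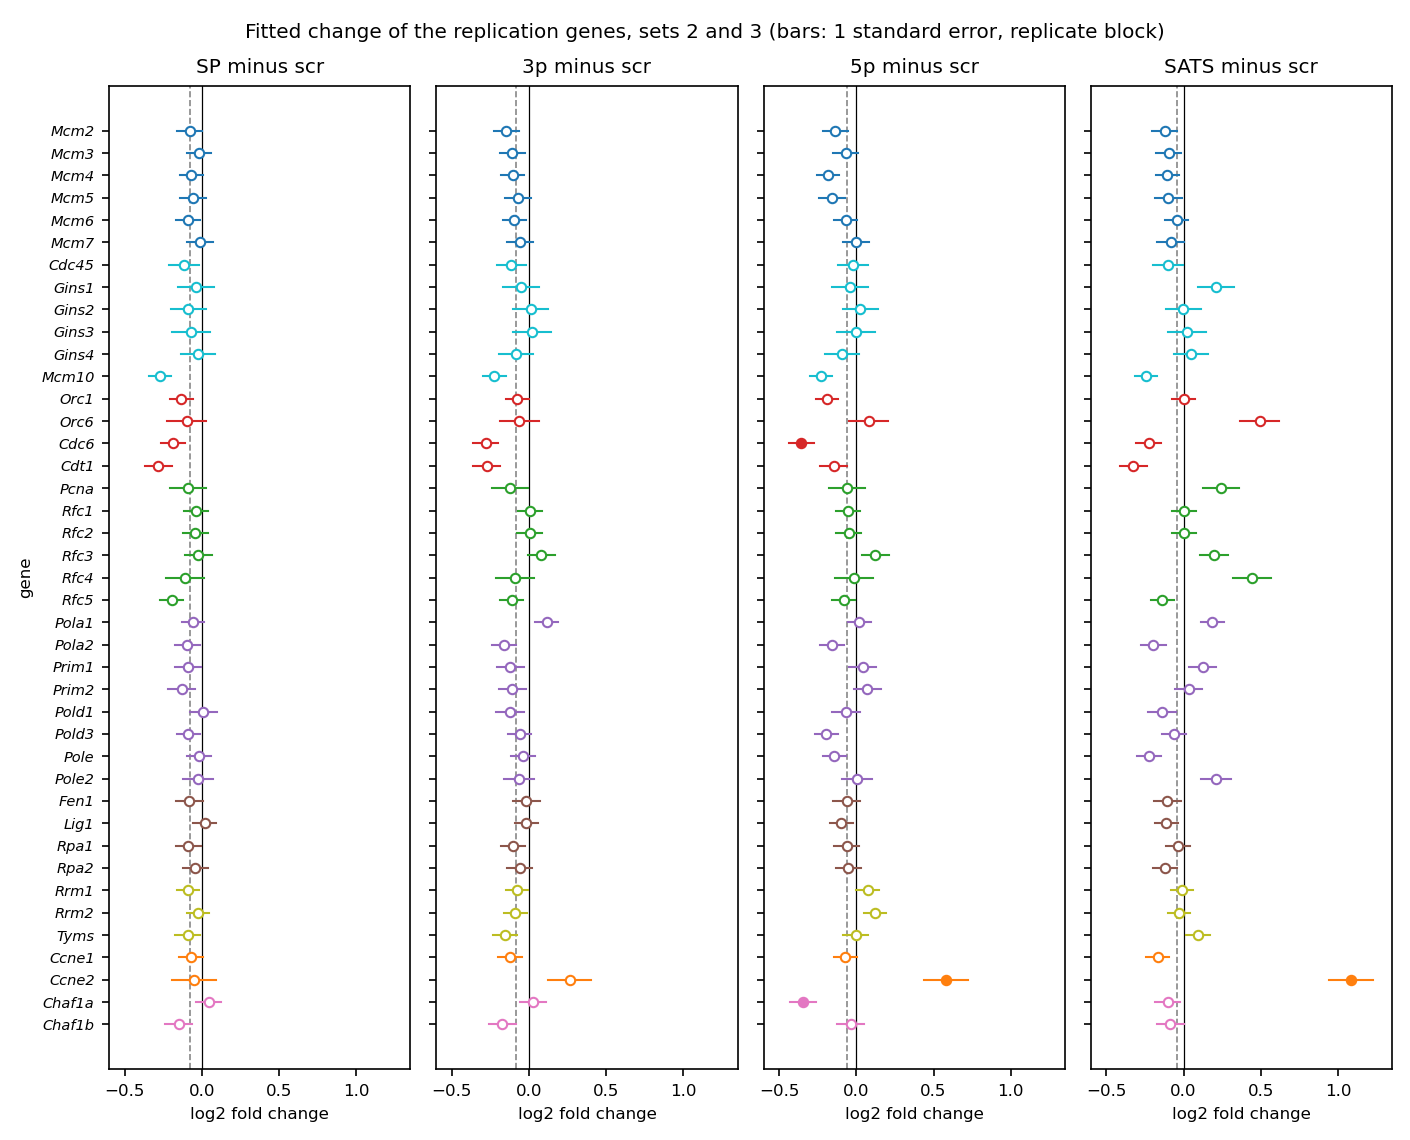
Fitted log2 fold change of each gene under SP, 3p, 5p and SATS against scr in sets 2 and 3 (n = 2 libraries per condition). Bars are 1 standard error of the limma fit with the replicate block, filled points have an adjusted p under 0.05, the dashed line is the median over the 41 genes, and colours give the role as in the plot of levels. Filled are *Cdc6*, *Ccne2* and *Chaf1a* under 5p and *Ccne2* under SATS.

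*Ccne2*, cyclin E2, gave the largest changes. In the controls it had 234, 322 and 400.2 normalized reads in scr of sets 1, 2 and 3, 226 in the untreated library of set 2 and 466 in the Luc library of set 3. The values were 469 and 618 in 5p and 528 and 1099.9 in SATS of sets 2 and 3, 344 and 539 in 3p, and 259 and 463 in SP. In set 1 the SP libraries held 376, 360.2 and 225. Both libraries of 5p and of SATS lay above every control library, with 5p_2 close to Luc_3 (469 against 466), while those of 3p and SP overlapped with the controls. The untreated library lay as far below scr_2 (−0.51) as 5p_2 lay above it (0.54), and SATS_3 alone stood far above the rest. With the block, the limma call under SATS was lost without SATS_3 (0.83, adjusted p = 0.129) or scr_3 (0.87, adjusted p = 0.153) and kept without SATS_2 (adjusted p = 0.00078) or scr_2 (adjusted p = 0.0444). Under 5p it was lost without any of the 4 libraries (adjusted p = 0.0837 to 0.507). Its paralog *Ccne1*, the main cyclin E of these cells, had fitted changes of −0.17 to −0.069 under the 4 siRNAs, without a call.

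*Cdc6*, which brings the MCM ring to the origin, was lower in every knockdown library of sets 2 and 3 than in every control of those sets except for SP_2. It had 1135 and 1152 normalized reads in scr_2 and scr_3, 1057 in the untreated library and 1042 in Luc, against 864 and 923 in 5p, 979 and 904 in 3p, 995 and 961 in SATS, and 1046 and 964 in SP. Set 1 went the other way, with 824 in scr_1 and 1058, 1048 and 1015 in SP. The change under 5p was −0.36 (SE 0.080 with the block). That call was lost without any single library of 5p or scr (limma with the block, adjusted p = 0.0962 to 0.307), with a change of −0.44 to −0.28.

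*Cdt1*, the partner of CDC6 in loading, had 2590.4 and 2635 normalized reads in scr_2 and scr_3, 2413 in the untreated library and 2419 in Luc. The values were 2264 and 2039.6 in SP, 2232 and 2089.9 in 3p, and 2048 and 2122 in SATS, all below the controls, and 2183 and 2554 in 5p, which overlapped with them. Set 1 held 2652 in scr and 2524, 2544 and 2142 in SP. *Orc1*, the largest ORC subunit, was within −0.19 to 0.00066 of scr in the fits, and *Orc6*, the smallest, behaved apart from the other licensing genes. Its values were 864 and 883 in scr_2 and scr_3, 786 in the untreated library, 955 in Luc, 758 and 878 in SP, 837 and 835 in 3p, 848 and 1006 in 5p, and 974 and 1552 in SATS. In set 1 it stayed at 951 in scr and 934 to 982 in SP. SATS_3 was far above all others, and without it the change of *Orc6* under SATS was 0.22 (limma with the block, adjusted p = 0.548).

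*Mcm10*, a scaffold that helps start the helicase and binds polymerase alpha, lay below scr by a like amount under all 4 siRNAs. It had 2137 and 2265 normalized reads in scr_2 and scr_3, 2045 in the untreated library and 2131 in Luc. All 8 knockdown libraries of sets 2 and 3 lay below these controls, with 1838 and 1815 in SP, 1908 and 1860.0 in 3p, 1835 and 1930.0 in 5p, and 1858 and 1868 in SATS. In set 1 the SP libraries held 2524, 2531 and 2013 against 2665 in scr. The fitted changes of −0.27 to −0.22 had unadjusted p-values of 0.0121 (SP), 0.0271 (3p), 0.0263 (5p) and 0.0202 (SATS) in limma without the block. They did not pass the adjusted threshold with or without it. Among the alternative fits with the block given below, *Mcm10* passed under SP on corrected values, and under SP and SATS with further controls. The 4 comparisons share the scr libraries, and SP and 3p also share siRNA catalogue numbers, so they are not independent of each other. Over the 6 MCM subunits the fitted changes were −0.089 to −0.010 under SP, −0.15 to −0.058 under 3p, −0.18 to −0.00084 under 5p and −0.12 to −0.044 under SATS, with 0 calls.

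*Chaf1a*, the large subunit of the factor that puts histones on new DNA, was low under 5p and not under 3p. It had 2002 and 2285 normalized reads in scr_2 and scr_3, 2162 in the untreated library, 2168 in Luc, 2263 and 2148 in SP, 2144 and 2217 in 3p, and 1906 and 2080.3 in SATS, against 1747 and 1624 in 5p. Set 1 held 1882 in scr and 1805 to 2152 in SP. The 5p libraries of sets 2 and 3 were the lowest of all 16. The change from scr was −0.34 (SE 0.084 with the block) and the difference of 5p from 3p was −0.37 (SE 0.084, limma adjusted p = 0.0268 with the block and 0.736 without it). Leaving out 1 library, the first call was kept only without 5p_2 (adjusted p = 0.0427) and the adjusted p was 0.106 to 0.449 without the others. The call between 5p and 3p was likewise kept only without 5p_2 (adjusted p = 0.0244) and lost without the others (adjusted p = 0.0812 to 0.391). *Chaf1b*, the middle subunit, changed by −0.036 under 5p.

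**Figure D4:**
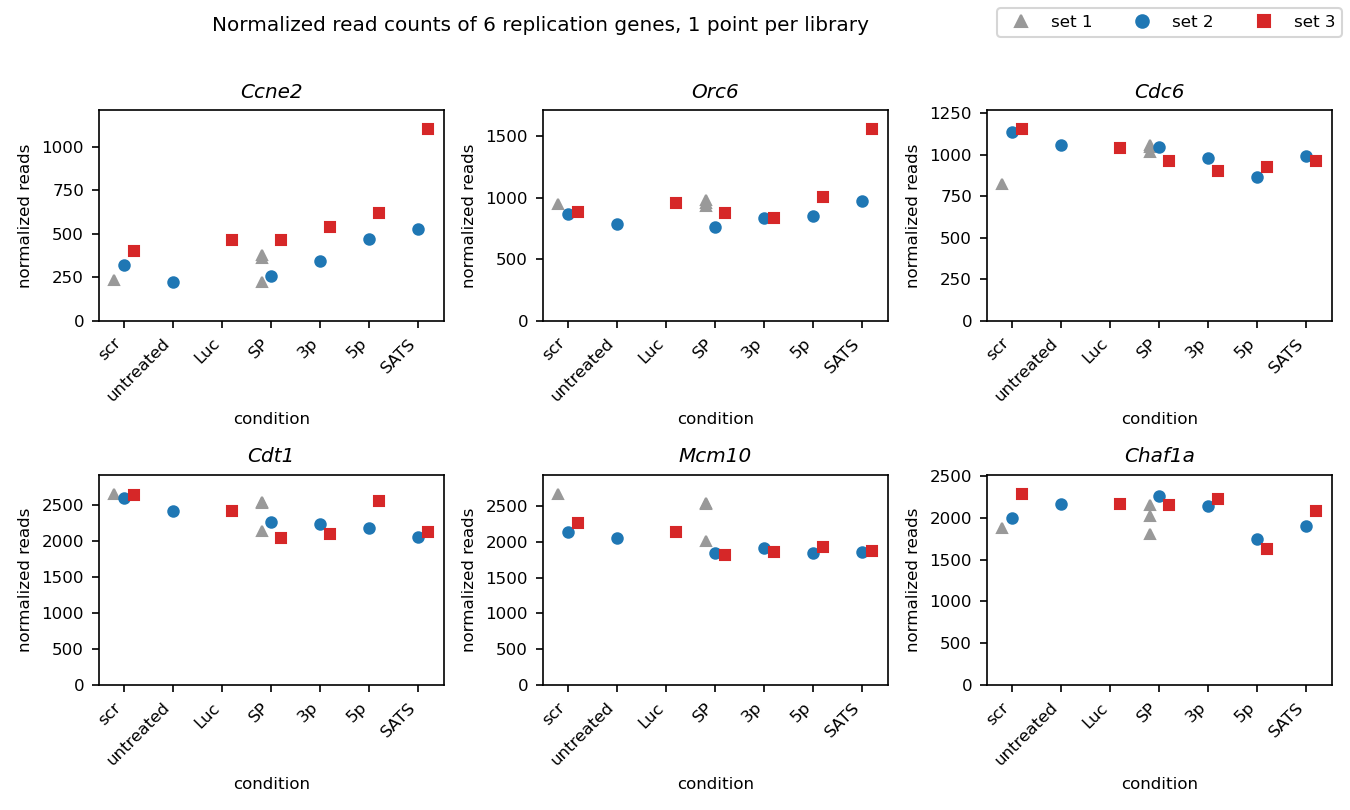
Normalized reads of *Ccne2*, *Orc6*, *Cdc6*, *Cdt1*, *Mcm10* and *Chaf1a* in each library by condition, with axes from 0. Grey triangles are set 1, blue circles set 2 and red squares set 3, 1 point per library. *Ccne2* is highest in SATS_3 (1099.9), *Chaf1a* is lowest in 5p (1747 and 1624), and *Mcm10* is below the controls of sets 2 and 3 in all 8 knockdown libraries of these sets.

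Between 5p and 3p, which lowered *Stag1* to similar levels (441 and 401 against 392 and 365 normalized reads), the replication genes differed little, with a median of 0.026 (all genes 0.016) and 26 of 41 genes higher in 5p. The sets disagreed in sign, at −0.060 in set 2 and 0.14 in set 3. *Chaf1a* was the only call, with the block. The next in size were higher in 5p: *Ccne2* by 0.32 (SE 0.14 with the block, adjusted p = 0.288), *Rrm2* by 0.21 (SE 0.072, adjusted p = 0.157) and *Prim2* by 0.18 (adjusted p = 0.348). Lower in 5p were *Pold3* by −0.13 (adjusted p = 0.431) and *Orc1* by −0.11 (adjusted p = 0.494), neither past the threshold in limma. The nucleotide supply genes *Rrm1*, *Rrm2* and *Tyms* were all above 3p in the fit, with a median of 0.15. *Rrm2* had 3730.2 and 3919 normalized reads in 5p, 3417 and 3204 in 3p and 3491 and 3547 in scr.

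SATS_3 held the highest value of all 16 libraries in *Rfc4* and *Pcna* as well. *Rfc4*, a clamp loader subunit, had 1169.9 normalized reads there, 647 in SATS_2 and 491 to 735 in the other 14 libraries. *Pcna* had 5694 in SATS_3 and 3714 in SATS_2, against 3087 to 4134 elsewhere. Without SATS_3 the change of *Pcna* under SATS was −0.0014 (limma with the block, adjusted p = 0.998). With the block and without SATS_2, SATS_3 alone stood for SATS. The fitted changes were then 1.34 for *Ccne2*, 0.77 for *Orc6* and 0.70 for *Rfc4*. In that fit the lone library is assumed to vary like the other groups.

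In most libraries of sets 2 and 3 the change of a replication gene from scr moved with the base composition of its transcript. *Ccne2* has the lowest GC content of the 41 (36.3%), and *Rfc4*, *Pole2*, *Pcna* and *Orc6* are also among the 8 lowest (up to 45.4%). Over the 41 genes the Spearman correlation of the change from scr with GC content was −0.73 in SATS_2, −0.61 in SATS_3, −0.57 in SP_3, −0.52 in Luc_3, 0.54 in SP_2 and 0.56 in the untreated library. It was −0.38 in 5p_2, −0.39 in 5p_3, −0.33 in 3p_3, 0.076 in 3p_2, and −0.17, −0.056 and 0.10 in SP_1a, SP_1b and SP_1c. The points of a library share its depth and its scr library, so these are given without a p-value. Across the 10504 annotated genes whose mean was 50 or more it was −0.41 in SATS_2, −0.31 in SATS_3, −0.18 in SP_3, −0.22 in Luc_3, 0.39 in SP_2 and 0.49 in the untreated library. With transcript length in place of GC content, the correlation over the 41 genes was −0.55 in 5p_3 and −0.50 in SATS_3. In the other libraries it was −0.32 to 0.28, and across the 10504 genes it was −0.35 in SATS_3. In SATS_3 the 8 genes of lowest GC had a median change of 0.41 and the 8 of highest GC −0.13. The untreated and Luc libraries thus showed the relation to GC content too, with opposite signs, as did SP_2 and SP_3. Libraries of a set are all set against the same scr library, so their correlations are not independent of each other. Over the 41 genes, those of set 3 were all negative, and those of set 2 had both signs. The part of base composition in the results was not tested beyond a correction. That correction took GC content and length together, so their shares in its effect cannot be told apart. On values corrected per library for a smooth trend on GC content and length, with the block, *Ccne2* stayed called under SATS at 0.66 in place of 1.08 (limma, adjusted p = 0.00588; background 1.36% of all genes) and under 5p at 0.50 (adjusted p = 0.00756; background 5.0%). *Cdc6* (−0.33, adjusted p = 0.0211) and *Chaf1a* (−0.29, adjusted p = 0.0285) also stayed called under 5p, and *Chaf1a* between 5p and 3p (−0.33, adjusted p = 0.0127; background 6.17%). *Orc6* under SATS came to 0.30 (adjusted p = 0.141) and *Rfc4* to 0.16 (adjusted p = 0.399). Under SP, *Cdt1* (−0.29, adjusted p = 0.0348) and *Mcm10* (−0.29, adjusted p = 0.0386) passed after this correction (background 2.3%), 0 genes passed under 3p (1.4%) and 0 for SP over 3 sets (0.0%).

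**Figure D5:**
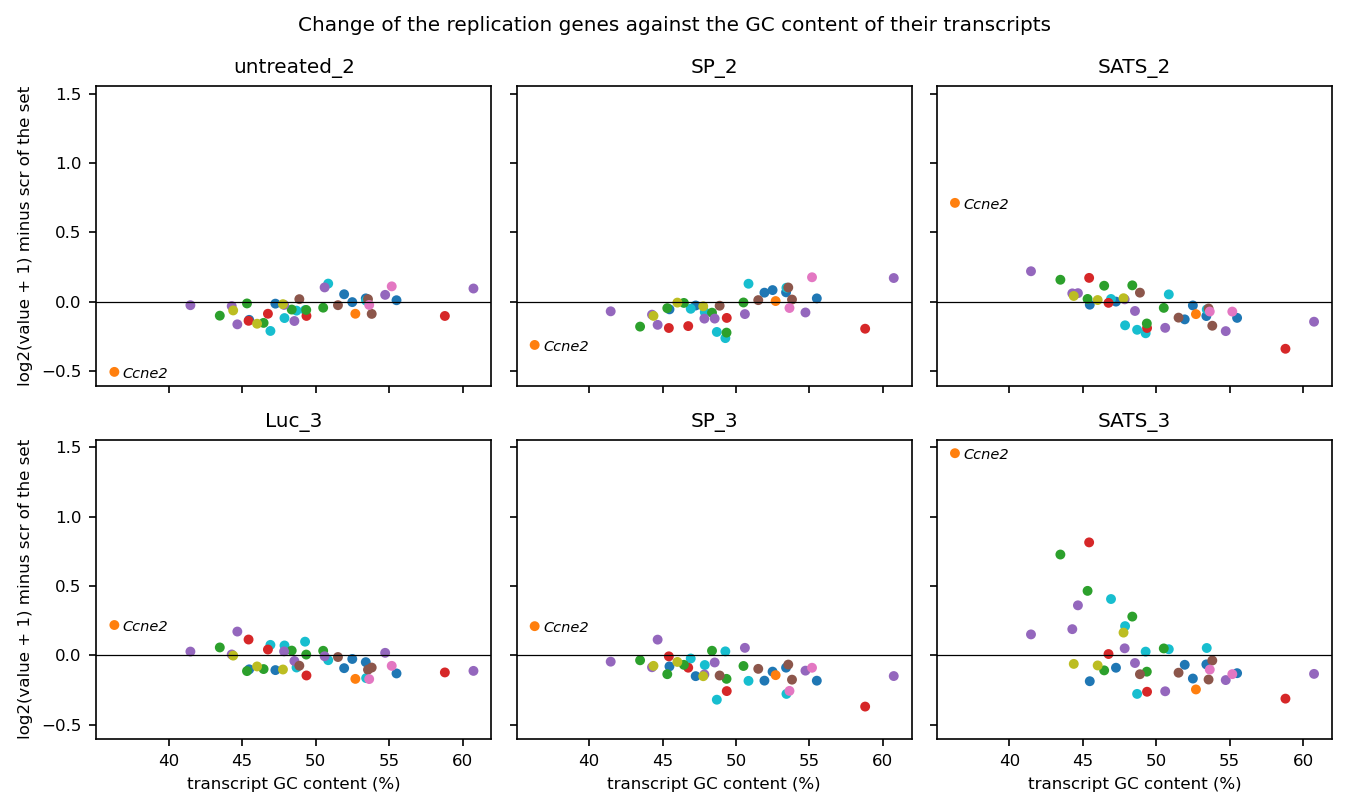
Change of each of the 41 genes from scr of its set, in log2(value + 1), against the GC content of its longest coding transcript in percent, for the untreated and Luc controls, SP and SATS. Each point is a gene, with colours for the role as in the plot of levels. The points slope up in the untreated library and SP_2 and down in Luc_3, SP_3, SATS_2 and SATS_3, with *Ccne2* (36.3% GC) at the end of each slope.

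The 5p duplex has its own sequence, so the replication genes were searched for the heptamer GTGGAAG, which pairs with bases 2 to 8 of its guide strand if the sequence given in the methods is the sense strand. It stood in an annotated 3′ UTR of 10 of the 41 genes (24.4%), against 15.1% of 10472 genes at or above that mean of 50. The 10 were *Mcm3*, *Gins4*, *Orc6*, *Cdc6*, *Cdt1*, *Rfc2*, *Rfc5*, *Rpa2*, *Ccne1* and *Chaf1a*. Both genes called lower under 5p with the block were among them, though neither call held in every fit that left out 1 library. Their sites are printed for that reason alone, with the heptamer in capitals and GRCm38 positions (GENCODE M21).
*Cdc6*, 3′ UTR of 1 of its transcripts (chr11:98921724-98921752, plus strand): tacgagcctccGTGGAAGggcattgtgtt
*Chaf1a*, 3′ UTR (chr17:56070178-56070206, plus strand): ggacccatgtgGTGGAAGgagaactacta
Under 5p the 10 genes had fitted changes of −0.36 to 0.081 with a median of −0.075 and 9 of 10 below 0, and the other 31 had −0.23 to 0.58 with a median of −0.041 and 22 below 0. Under 3p the medians were −0.096 and −0.078. The 10 genes had longer 3′ UTRs (median 723 bases, against 526 bases). *Cdc6* also had negative fitted changes under 3p (−0.28) and SATS (−0.23), and *Chaf1a* changed by 0.028 under 3p and −0.10 under SATS. Whether the siRNA acts on these transcripts was not tested.

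The median change of the 14 genes with an E2F-type word is given against that of the 19 without one. It was −0.058 against −0.089 under SP, −0.068 against −0.11 under 3p, −0.070 against −0.054 under 5p, and −0.073 against −0.087 under SATS. Between 5p and 3p it was 0.0023 against 0.053. The ranges overlapped in each comparison. Exact matches to these words do not tell which genes E2F factors control, so no conclusion about E2F is drawn. Genes without a promoter window, *Ccne2* among them, were left out. Of 53 further replication genes, 0 were called by limma without the block in any comparison, and with it 0 under SP, 0 under 3p, 2 lower under 5p (background 2.37% of all genes) and 2 lower under SATS (2.64%), a share near the background, with medians of −0.094, −0.065, −0.048 and −0.012. *Ccnd1*, the D-type cyclin upstream of E2F release, was in both counts: it had 3412 and 3015 normalized reads in scr_2 and scr_3, 2781 and 1927 in 5p (−0.47, adjusted p = 0.0136) and 2789.8 and 2144 in SATS (−0.39, adjusted p = 0.0368). The others were *Recql4*, a helicase of initiation, under 5p (−0.39, adjusted p = 0.0361) and *Ticrr*, which brings CDC45 to origins, under SATS (−0.33, adjusted p = 0.0384). SP_3 and 3p_3 were also low in *Ccnd1*, at 2256 and 2081.

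Among 20 regulators of E2F and its inhibitors, the medians were 0.095 under SP, 0.14 under 3p, 0.080 under 5p and 0.049 under SATS, with 0 calls without the block. With it there was 1 call under 3p (background 0.285%), 1 under 5p (2.37%) and 2 under SATS (2.64%). limma called *Cdkn1a*, the kinase inhibitor p21, higher under 3p (0.49, adjusted p = 0.0378; 1316 and 718 normalized reads in scr, 1692 and 1104 in 3p). It called *Rbl1*, a pocket protein that restrains E2F, higher under 5p (0.45, adjusted p = 0.0388), and *E2f5* and the inhibitor *Cdkn1b* higher under SATS (0.49 and 0.42, adjusted p = 0.0335 and 0.0484). *Cdkn1a* differed more between sets than between siRNAs, since scr_2 held 1316 and scr_3 718. Of 24 mitosis genes used for comparison, limma with the block called 1 under SATS (background 2.64%), *Nusap1*, which bundles spindle microtubules (0.49, adjusted p = 0.0209), with medians of 0.0031 to 0.052 over the list under the 4 siRNAs.

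The sets themselves differed in these genes about as much as the siRNAs did. From scr_2 to scr_3 the median change of the 41 genes was 0.11 (32 higher and 9 lower, all genes −0.017), from −0.073 for *Rfc2* to 0.40 for *Pold3*. In 5p it was 0.11 with 37 of 41 higher in set 3, in SATS 0.14 with *Ccne2* at 1.06, in SP 0.015 and in 3p −0.027.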

How the data were processed

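RNA-seq values of 16 serum-grown mESC libraries were analysed; 2 libraries of cells in 2i were not used. The authors used HISAT2 (mm10) and featureCounts, and the deposited values are a normalized signal, the reads of a gene divided by 1 DESeq2 (1.14.1) size factor per library. Reads were 75 bp long, and which libraries were sequenced from both ends is not given in the sources used here. Another deposited table, CPM of set 1 alone from edgeR 3.16.5, was not used. Dividing by the value of 1 read gave whole reads for 100% of values (tolerance 0.01), from which depth was computed. Reads copied by PCR are no separate molecules, and depth therefore limits counting error alone.

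The deposited signal was taken to log2(value + 1), genes summing to under 10 were dropped, and limma 3.58.1 (R 4.3.3, moderated with a trend) was run. Calls needed an adjusted p (Benjamini-Hochberg) under 0.05. SP, 3p, 5p, SATS and scr of sets 2 and 3 (10 libraries) were fitted together. A second fit took SP and scr of 3 sets, where SP_1a, SP_1b and SP_1c entered as their mean. This scale understates changes of low genes. Set numbers come from the labels. Deviations of same-numbered libraries from group means correlated at 0.79 (0.76 to 0.82, 3 pairs, 11058 genes) for SP and at 0.85 (0.80 to 0.93) in the panel, where 2 libraries per group make the values mirror each other, so the set was taken as a pairing and the fit with it as a block is given beside the main one.

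Alternatives were other pseudocounts (0.1 and 10), no filter or a mean of at least 50, TMM factors without *Rn45s*, edgeR 4.0.16 (quasi-likelihood) and DESeq2 1.42.0 on recovered reads, further controls and leaving out libraries. Without the block edgeR called 1, 1, 2 and 0 genes under SP, 3p, 5p and SATS. The correction for GC content and length (natural splines with 5 degrees of freedom, trend from genes with a mean of at least 50) and fits that combine the block with other choices were added after seeing the data. Fits were tested on simulated counts. Levels per kb use the union of exons of protein-coding transcripts in GENCODE M21 (GRCm38), and promoter windows come from RefSeq.

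The 41 genes and all lists were chosen with earlier results of these data known. Named per comparison were genes past the threshold without or with the block, and the 3 largest rises and 3 largest falls among genes that moved the same way in every set; from other lists, genes past the threshold, at most 4 per list. *Mcm3* in set 1, *Ccne1*, *Chaf1b* and *Pcna* were named after their values were seen.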

Additional observations from a re-analysis of the deposited data

Results flagged for a closer look

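Among 15 measures of the SP libraries examined for 1 library far from the other 4, 2 stood out, and chance gives about 1 in 20. *Pola1*, the catalytic subunit of polymerase alpha, was at −0.49 against scr of its set in SP_1c (269 reads) and at −0.14 to −0.046 in the other 4 SP libraries. *Prim2*, the large primase subunit, was at −0.75 in SP_1c (46 reads) and at −0.14 to −0.050 in the others. SP_1c was the shallowest library, with 1883691 reads outside *Rn45s*. The effects of 5p and 3p differed for *Chaf1a*, by −0.37 (limma with the replicate block, adjusted p = 0.0268), lower in 5p in 2 of 2 sets. Without the block limma gave an adjusted p of 0.736, and the call with it did not hold in every fit that left out 1 library.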

How the results depend on the processing

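Without the block, the count of called replication genes was 0 in all 6 comparisons under every alternative run, other pseudocounts, filters, TMM factors, edgeR, DESeq2, further controls, the GC and length correction and leave-one-out fits included. With the replicate block it was 3 under 5p, 1 under SATS and 1 between 5p and 3p. With edgeR and the block it was 2, 2 and 1 (2.41%, 3.34% and 3.21% of all genes), and with TMM factors and the block 3, 2 and 1 (2.44%, 3.11% and 3.19%). On values corrected for GC content and length with the block it was 2 under SP, 3 under 5p, 1 under SATS and 1 between 5p and 3p. With the untreated and Luc libraries as further controls and the block it was 1 under SP (*Mcm10*), 3 under 5p and 7 under SATS. In these fits 2.32%, 6.71% and 10.7% of all genes were called. The 7 under SATS were *Ccne2*, *Orc6* and *Rfc4*, which were higher, and *Mcm10*, *Cdt1*, *Pola2* and *Pole*, which were lower. Outside the leave-one-out fits, the block changed no other call of a replication gene in limma. The median over the genes under SP was −0.051 after the GC and length correction and −0.049 with further controls, with or without the block, and under SATS −0.016 with further controls.

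Leaving out 1 library, the median ran from −0.12 to −0.028 under SP (with the block −0.10 to −0.063), from −0.13 to −0.039 under 3p (−0.14 to −0.016), from −0.13 to 0.017 under 5p (−0.11 to −0.0067), from −0.098 to 0.015 under SATS (−0.072 to −0.0074, and −0.070 without SATS_3), from −0.074 to 0.099 between 5p and 3p (−0.050 to 0.098), and from −0.079 to −0.059 for SP over 3 sets. With the block the count ran from 0 to 1 under 5p, 0 to 4 under SATS and 0 to 1 between 5p and 3p, and stayed at 0 under SP and 3p. Signs turned for *Ccne2* under 3p without 3p_3 (−0.062, up to 0.59 in other such fits), *Pola1* under 3p without 3p_3 (−0.055) or scr_2 (−0.024, up to 0.28), *Rfc3* under 3p without scr_2 (−0.00022, up to 0.16) and, with the block, without 3p_2 (−0.027, up to 0.19), *Rfc3* under 5p without 5p_3 (−0.026, up to 0.27), and between 5p and 3p for *Ccne2* without 3p_2 (−0.0025, up to 0.65) and *Pold3* without 3p_3 (0.027) or 5p_2 (0.054, down to −0.32). The cause was not tested. With 2 libraries per condition, and 17 to 78 reads for *Gins3* in set 1, small changes of low genes were not detectable.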
